A study of Homo sapiens with 8 samples.

Results

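The heat-shock factors, chaperones and cochaperones are described here in OAW42-R cells, a line made resistant to cisplatin from the serous ovarian cancer line OAW42. The list held 48 genes, chosen by name as the families of HSF, HSP90, HSP70, HSP110, J-domain protein (HSP40), small heat-shock protein, mitochondrial chaperonin, CCT/TRiC chaperonin and HSP90 or HSP70 cochaperone, out of 22439 genes with a RefSeq symbol on the array. Cells were transfected at 20 nM with a nontargeting siRNA pool (sictrl) or with a mix of a pair of siRNAs (siUCA1) whose target is UCA1, a long noncoding RNA, and no cisplatin treatment is named for these samples. RNA of 4 sictrl and 4 siUCA1 cultures was measured on 8 one-color Agilent arrays. Replicates are called A1, M2, A2 or A3 in the labels, with 1 of each name per condition, and RNA extraction is placed there at 24 h, whereas the study's methods give a longer interval after transfection and 4 independent experiments. The comparison is a single line with a single siRNA mix, so an effect of UCA1 loss and an off-target effect of that mix cannot be told apart.

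Chaperones bind unfolded segments of other proteins and let them fold, refold or pass to degradation. HSP70 works in cycles of ATP hydrolysis that are started by J-domain proteins and reset by nucleotide exchange factors such as HSP110. HSP90 takes over late-folding clients, among them kinases and steroid receptors, which cochaperones bring to it. HSF1 switches on many of these genes in stressed cells by binding repeats of a short element in their promoters. Tumor cells are known to depend on this system, and HSP27 (HSPB1) and HSP70 are known for a part in survival under cisplatin. The name cytosolic holds for only a share of the list, since TRAP1, HSPA9, HSPD1, HSPE1 and DNAJA3 are mitochondrial proteins, HSPA13 is found in microsomes, and HSPB11 is now named IFT25, a subunit of the intraflagellar transport complex.

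All 48 genes had at least 1 probe on the array (67 probes in all). A gene was tested when sictrl, siUCA1 or both had 1 of its probes well above background on 4 of 4 arrays, and 44 genes passed. HSPA1L, HSPA6 and DNAJA4 were not well above background on any of the 8 arrays. DNAJB4 was so on 3 arrays of each condition and was not tested. Values are log2 signals relative to the 75th percentile of their array, so that 0 marks that percentile. They serve to compare conditions for 1 probe and not to compare probes. A gene is called when its adjusted p (limma, Benjamini-Hochberg over all 15454 genes tested) is under 0.05.

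UCA1, the siRNA target, was lower by 5.04 in siUCA1 (SE 0.29, adjusted p = 0.000122), a signal 97.0% lower. KRT8, KRT18, EPCAM, PAX8 and CDH1, markers of an epithelial ovarian line, were detected on all 8 arrays. CDH1 fell by 0.81 and was the 1 of these 5 that was called, while EPCAM differed by 0.50 with all siUCA1 arrays above all sictrl arrays (adjusted p = 0.0675), KRT8 by 0.30, KRT18 by -0.10 and PAX8 by -0.16. WT1 and MUC16 were detected on none. Among markers that such a line should lack, CD3E was detected on no array and PTPRC and PECAM1 on 1 siUCA1 array each. The part of these markers in the results below was not tested. The arrays lay on 1 slide and were scanned in 1 run, with 2 arrays of each condition in each slide row.

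Both sictrl A3 and siUCA1 A1 stood apart from the others of their condition, and they did so in 1 region of their surface. The spots of an array lie in 164 columns. For probes with 1 spot that were detected on every array, the SD of the deviation from the condition's median in columns 1 to 70 (6901 probes) was 0.573 on sictrl A3 and 0.556 on siUCA1 A1, against 0.133 to 0.211 on the other 6 arrays. In the columns beyond (10115 probes) it was 0.274 and 0.223, against 0.127 to 0.238. Of 17016 such probes, 287 were lower by over 0.8 than the mean of the other 3 arrays of their condition on both of these arrays, and 286 of them lay in columns 1 to 70. In the opposite direction there were 34. Beyond column 70, sictrl A3 also had an SD of 0.404 in columns 121 to 130.

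Single chaperone genes carried this pattern. PTGES3, HSPA4, HSPA8, DNAJA2, CCT8 and DNAJA1 were each lower by over 0.8 on both sictrl A3 and siUCA1 A1, and their spots lie between columns 48 and 61. They are 6 of the 20 members with a single spot in columns 1 to 70, where 286 of all 6901 such probes did so. The reason for the larger share among members was not tested. PTGES3, the p23 cochaperone of HSP90, differed by -1.92 on sictrl A3 and by -1.55 on siUCA1 A1 from the mean of the other 3 arrays of its condition. None of the 19 members whose single spot lies beyond column 70 and none of the 5 measured by 10 spots did the same. The median SD within conditions was 0.233 over the 20 members in columns 1 to 70, 0.139 over those beyond, and 0.114 over the members with 10 spots. The deviating pair holds 1 array of each condition, and the standard error of the difference was between 0.29 and 0.52 for those 6 genes. With these spots set to missing as well, a setting chosen after seeing the data, the difference between conditions was 0.10 for PTGES3, -0.05 for DNAJA2 and -0.17 for CCT8, none of them called. The values of other members in that setting stand beside their results.

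**Figure D1:**
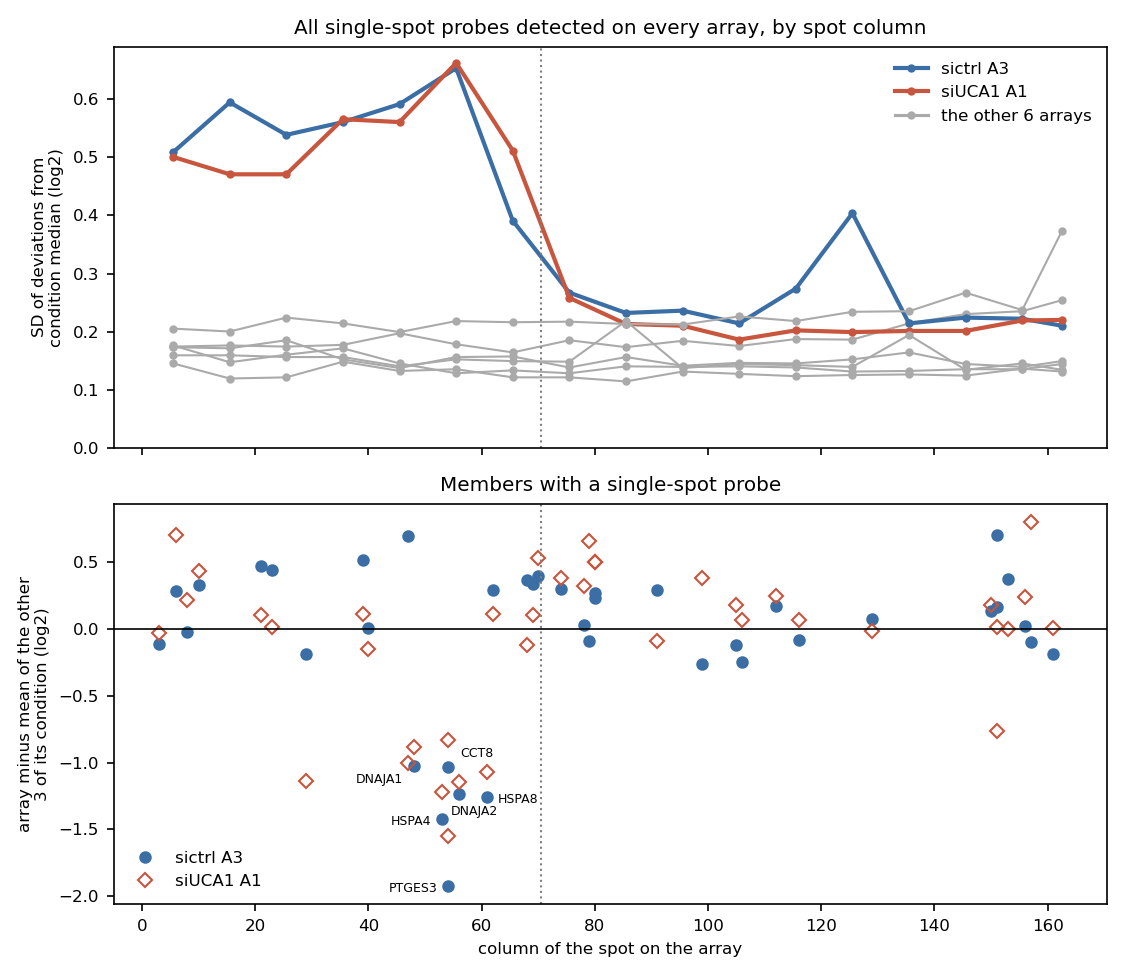
Upper panel: SD of the deviation from the condition's median (log2) of all single-spot probes detected on every array, in steps of 10 columns along the array (x axis), for sictrl A3, siUCA1 A1 and the other 6 arrays; the first pair stays at or above 0.39 up to column 70, marked by the dotted line. Lower panel: for each member with a single spot, the log2 difference between sictrl A3 (filled circles) or siUCA1 A1 (open diamonds) and the mean of the other 3 arrays of its condition; PTGES3, HSPA4, HSPA8, DNAJA2, CCT8 and DNAJA1 fall together below -0.8 on both.

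The members that passed the threshold after siUCA1 were 2 J-domain genes and 2 cochaperones, and none passed it upward. DNAJB2, DNAJA3, CDC37 and FKBP4 were called, which is 4 of 44 members (9.09%), against 11.6% of all genes tested. All 4 were lower, where 5.85% of all genes were called lower. With limma 0 members were called higher, against 5.72% of all genes, and 1 member (CCT6A) was higher at an unadjusted p under 0.05, against 14.5% of all genes. In either direction 11 members (25.0%) were past that limit, against 27.6% of all genes tested. The arrays of the conditions did not overlap for 11 members (25.0%, 8 lower and 3 higher), against 20.9% of all genes. The median log2 fold change was -0.10 over the 44 members and 0.03 over all genes, with 30 members below 0 and 14 above. The size of the differences was small: 41 of 44 lay within 0.5 of 0, and the median absolute value was 0.169, against 0.2035 over all genes. The 95% confidence interval stayed within 1 on either side of 0 for 38 members and within 0.5 for 24, so that a change of 1 on the log2 scale lies outside the interval for most members and one of 0.5 for about as many as not. In RNA from whole cultures, fewer cells with a transcript and less of it per cell cannot be told apart.

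**Figure D2:**
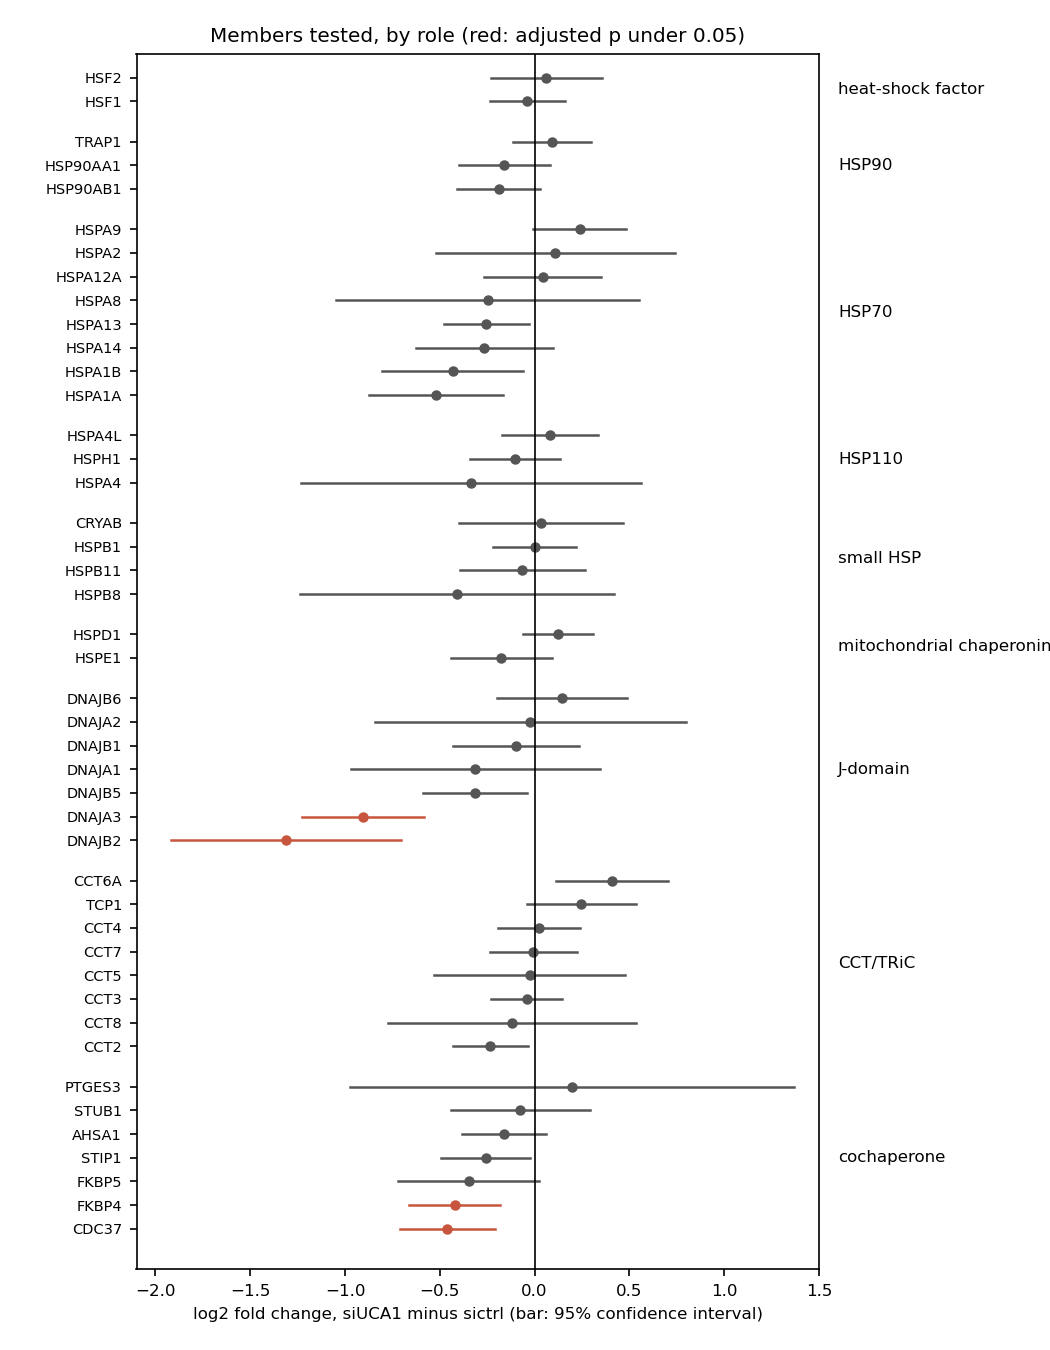
Log2 fold change (siUCA1 minus sictrl, x axis) of the 44 members tested, grouped by role, with 4 arrays per condition; the point is the estimate, the bar its 95% confidence interval, and red marks an adjusted p under 0.05. DNAJB2, DNAJA3, CDC37 and FKBP4 lie below 0 in red, and the widest bar is that of PTGES3, from -0.98 to 1.37.

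With the spots in columns 1 to 70 of sictrl A3 and siUCA1 A1 set to missing, 8 members were called, 7 of them lower, which is 18.2% against 21.3% of all genes in that fit. HSPA1A, HSPA4, DNAJA1 and, upward, CCT6A joined the same 4. With both of these arrays left out, 12 members were called (26.7%, against 24.3% of all genes), HSPA1B, HSPA13, HSPA14 and CCT2 joining those 8. With array weights 13 were called (29.5%, against 31.1%), among them DNAJB5, STIP1 and FKBP5, which no other setting called. Leaving out siUCA1 A1 alone gave 7 called members, all lower (15.9%, against 14.7% of all genes in that fit), and leaving out another array gave between 2 and 5, where between 4.9% and 13.8% of all genes were called. DNAJA3 and DNAJB2 were called in each of the 8 fits that left out 1 array, CDC37 in 3 and FKBP4 in 2.

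The J-domain proteins, which deliver clients to HSP70 and start its ATPase cycle, held the largest differences. Of 9 genes 7 were tested and 2 called, both lower (28.6%, against 5.85% of all genes called lower), with 6 of 7 below 0 and a median of -0.31. DNAJB2 (HSJ1), which hands ubiquitin-tagged clients to the proteasome and is known from motor neuropathy, lies on chromosome 2 (chr2:219279366-219286895, GRCh38.p14). Its signal was 3.39, 3.57, 3.53 and 4.19 on sictrl A1, M2, A2 and A3, and 1.61, 2.49, 2.69 and 2.66 on siUCA1 A1, M2, A2 and A3. Every siUCA1 array lay below every sictrl array, with the highest sictrl value on A3 and the lowest siUCA1 value on A1. The spot lies in column 47, inside the region where those arrays deviate. The difference was -1.31 (SE 0.27, 95% confidence interval -1.92 to -0.70, adjusted p = 0.0174), a signal 59.7% lower. With those spots missing it was -0.89 (adjusted p = 0.00239). A second probe, for another transcript of the gene, gave -1.22 (adjusted p over all probes 0.0326) and was well above background on 4 sictrl and 2 siUCA1 arrays. It lies in column 54, inside the same region, with -1.87 on sictrl A3 (others -0.95 to -0.92) and -2.93 on siUCA1 A1 (others -2.67 to -1.80), so that its conditions overlapped.

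DNAJA3 (TID1), the J-domain partner of mitochondrial HSP70, lies on chromosome 16 (chr16:4425868-4456775, GRCh38.p14) and is measured by 10 spots spread over each array. Its mean signal was 4.21, 4.11, 4.16 and 3.81 on sictrl A1, M2, A2 and A3, and 3.51, 3.05, 3.02 and 3.09 on siUCA1 A1, M2, A2 and A3. The sets were separate, with A3 lowest in sictrl and A1 highest in siUCA1. The difference was -0.91 (SE 0.14, 95% confidence interval -1.23 to -0.58, adjusted p = 0.0069), a signal 46.6% lower, and -0.96 (adjusted p = 0.00153) with the deviating spots missing. The two-sided exact permutation p was 0.0286 for DNAJB2 and DNAJA3 alike, the smallest that 4 arrays against 4 allow.

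DNAJB1, the stress-inducible J-domain partner of HSP70 that HSF1 drives, was 3.46, 3.33, 3.49 and 3.70 on the sictrl arrays (A1, M2, A2, A3) and 3.77, 3.15, 3.30 and 3.36 on the siUCA1 arrays. These overlapped, and the difference was -0.10 (SE 0.15, adjusted p = 0.716). The other tested J-domain genes were DNAJA1 at -0.31, DNAJB5 at -0.31, DNAJA2 at -0.02 and DNAJB6 at 0.14. DNAJA1 was past the threshold with the deviating spots missing, at -0.35 (adjusted p = 0.0265), and ran from -0.57 without sictrl A3 to -0.09 without siUCA1 A1, with no call in the fits that left out 1 array.

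The cochaperones of HSP90 and HSP70 gave the remaining calls, 2 of 7 tested and both lower (28.6%, against the same 5.85%), with 6 of 7 below 0. CDC37, which brings protein kinases to HSP90, lies on chromosome 19 (chr19:10391133-10403542, GRCh38.p14). It was 4.63, 4.49, 4.62 and 4.92 on sictrl A1, M2, A2 and A3, and 4.29, 4.21, 4.19 and 4.13 on siUCA1 A1, M2, A2 and A3. All siUCA1 values lay below all sictrl values, and the difference was -0.46 (SE 0.11, adjusted p = 0.0308, exact permutation p = 0.0286), a signal 27.3% lower. FKBP4 (FKBP52), an immunophilin that raises steroid receptor activity on HSP90, lies on chromosome 12 (chr12:2794970-2805423, GRCh38.p14). It was 4.75, 4.80, 4.88 and 5.10 on the sictrl arrays and 4.55, 4.43, 4.52 and 4.36 on the siUCA1 arrays in the same order. The sets were again separate, with a difference of -0.42 (SE 0.11, adjusted p = 0.0367, exact permutation p = 0.0286), a signal 25.3% lower. A second FKBP4 probe gave -0.33 and was not called (adjusted p over all probes 0.139). The spots of CDC37 and of the first FKBP4 probe lie in columns 69 and 62, and with the deviating spots missing the differences were -0.40 (adjusted p = 0.0191) and -0.37 (adjusted p = 0.0275). CDC37 and FKBP4 both lost the call with the replicate name as a block (adjusted p = 0.0613 and 0.0757) and in most fits that left out 1 array.

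FKBP5 (FKBP51), the immunophilin that acts against FKBP4 on steroid receptors and is itself induced by glucocorticoid, was -1.70, -1.45, -1.42 and -1.79 on sictrl A1, M2, A2 and A3, and -1.65, -2.12, -1.72 and -2.26 on siUCA1 A1, M2, A2 and A3. Its values overlapped, and the difference of -0.35 (SE 0.16) was not called (adjusted p = 0.209) and was -0.06 with normexp. STIP1 (HOP), which joins HSP70 to HSP90, differed by -0.26 on 1 probe and -0.57 on the other, neither called. STUB1 (CHIP), the ubiquitin ligase of the system, differed by -0.07, AHSA1, the activator of the HSP90 ATPase, by -0.16, and PTGES3 by 0.20. The sign for PTGES3 depended on single arrays, with -0.28 when sictrl A3 was left out and 0.59 when siUCA1 A1 was.

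The HSP70 family had 8 of 10 genes tested and 0 called, with 3 at an unadjusted p under 0.05 (27.6% of all genes) and a median of -0.25. HSPA1A and HSPA1B, the stress-inducible HSP70 genes, lie next to each other and code for nearly the same protein, so that a probe of either may also bind transcripts of the other, and the split of signal between them is uncertain. HSPA1A was -1.55, -1.43, -1.22 and -0.99 on sictrl A1, M2, A2 and A3, and -1.56, -2.07, -1.72 and -1.89 on siUCA1 A1, M2, A2 and A3. HSPA1B was 5.19, 5.03, 5.29 and 5.40 on the sictrl arrays and 5.17, 4.43, 4.70 and 4.89 on the siUCA1 arrays in that order. For HSPA1A the sets touched without overlap (-1.55 on sictrl A1, -1.56 on siUCA1 A1), and for HSPA1B the siUCA1 A1 array lay inside the sictrl range. The differences were -0.52 (SE 0.16, adjusted p = 0.0661) and -0.43 (SE 0.16, adjusted p = 0.127), with exact permutation p of 0.0286 and 0.0571, the largest among genes of this family, and neither was called. With the deviating spots missing they were -0.48 (adjusted p = 0.0209) and -0.43 (adjusted p = 0.079). HSPA1A was also called without siUCA1 A1 (-0.60, adjusted p = 0.0412), without both deviating arrays (-0.50, adjusted p = 0.0332), with array weights (-0.51, adjusted p = 0.0112) and with the 75th percentile over detected probes (-0.54, adjusted p = 0.0356). Normexp, another background correction, gave -0.19 (adjusted p = 0.425). The HSPA1A probe is dim, with means of -1.30 in sictrl and -1.81 in siUCA1, and the part of background subtraction in its difference was not tested. HSPA1B was called without siUCA1 A1 (-0.56, adjusted p = 0.039), without both deviating arrays (-0.50, adjusted p = 0.0424) and with array weights (-0.51, adjusted p = 0.0137).

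HSPA8, the constitutive HSP70 (HSC70), was 7.06, 6.99, 7.07 and 5.78 on sictrl A1, M2, A2 and A3, and 5.67, 6.90, 6.69 and 6.64 on siUCA1 A1, M2, A2 and A3. The low value of each condition was on 1 of the deviating arrays, and the difference of -0.25 had an SE of 0.35 (adjusted p = 0.7). Without those spots it was -0.29 (adjusted p = 0.0803). The rest of the family ran from -0.27 for HSPA14, which sits on ribosomes, to 0.24 for HSPA9, the mitochondrial HSP70 (mortalin) that works with DNAJA3. HSPA14 was called without siUCA1 A1 (-0.43, adjusted p = 0.0168), without both deviating arrays (-0.45, adjusted p = 0.00948) and with array weights (adjusted p = 0.0113). HSPA13, at -0.25, was called without both arrays (adjusted p = 0.0319) and with array weights (adjusted p = 0.0142). HSPA9 was higher on every siUCA1 array than on every sictrl array but was not called (adjusted p = 0.191).

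None of the 3 HSP90 genes was called, with 0 at an unadjusted p under 0.05. HSP90AA1, the stress-inducible form, was 9.02, 9.27, 9.19 and 9.18 on sictrl A1, M2, A2 and A3, and 9.18, 8.95, 9.04 and 8.84 on siUCA1 A1, M2, A2 and A3. HSP90AB1, the constitutive form, was 6.10, 6.04, 6.18 and 5.92 on the sictrl arrays and 5.88, 5.99, 5.85 and 5.77 on the siUCA1 arrays. Both overlapped between conditions. The differences were -0.16 (95% confidence interval -0.40 to 0.08, adjusted p = 0.373) and -0.19 (-0.41 to 0.03, adjusted p = 0.244). The 3 probes of HSP90AA1 gave -0.16, -0.19 and -0.31, none of them called. The sets were separate for the last of these (SE 0.10, adjusted p over all probes 0.0782). It ran from 4.84 to 4.99 on the sictrl arrays and from 4.41 to 4.72 on the siUCA1 arrays. HSP90AA1 was -0.31 with quantile normalization, -0.28 with normexp and -0.26 with median scaling, and HSP90AB1 was -0.28 with median scaling, again without a call. TRAP1, the mitochondrial HSP90, differed by 0.09, and by -0.0054 with median scaling.

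HSF1 and HSF2, the transcription factors that bind heat-shock elements, did not pass the test. HSF1 was 7.88, 7.82, 7.94 and 7.77 on sictrl A1, M2, A2 and A3, and 7.79, 7.74, 7.91 and 7.80 on siUCA1 A1, M2, A2 and A3. HSF2 was 1.81, 1.66, 1.79 and 2.13 on the sictrl arrays and 1.91, 1.77, 1.83 and 2.13 on the siUCA1 arrays. Each overlapped almost fully, with differences of -0.04 (95% confidence interval -0.24 to 0.16) and 0.06 (-0.23 to 0.36). HSF1 is regulated mainly by release from chaperones and by phosphorylation, which an array does not measure. Its other probes gave 0.0027 and 0.20.

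Among the HSP110 exchange factors, HSPH1 was 6.45, 6.43, 6.48 and 6.59 on sictrl A1, M2, A2 and A3, and 6.52, 6.17, 6.37 and 6.48 on siUCA1 A1, M2, A2 and A3. It overlapped between conditions and differed by -0.10 (SE 0.10, adjusted p = 0.569). HSPA4 differed by -0.33 (SE 0.39) on the probe that stands for the gene, in column 53, and by -0.35 (SE 0.11, adjusted p over all probes 0.081) on its other probe. With the deviating spots missing the first gave -0.39 and was called (adjusted p = 0.0236), while it was -0.69 without sictrl A3 and -0.03 without siUCA1 A1, not called in either fit. HSPA4L differed by 0.08.

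The small heat-shock proteins hold unfolding proteins in soluble complexes without ATP. HSPB1 (HSP27) was 8.70, 8.79, 8.94 and 8.98 on sictrl A1, M2, A2 and A3, and 8.87, 8.81, 8.93 and 8.80 on siUCA1 A1, M2, A2 and A3. The siUCA1 arrays lay within the sictrl range, with a difference of 0.0017 (95% confidence interval -0.22 to 0.22), and its other probes gave 0.26 and 0.35 without a call. Those probes lie in columns 28 and 60, inside the deviating region. The probe at 0.35 (adjusted p over all probes 0.163) ran from 2.12 to 2.40 on the sictrl arrays. It was 2.18 on siUCA1 A1 and between 2.66 and 2.84 on the other siUCA1 arrays. HSPB8, which works with the cochaperone BAG3 in selective autophagy, was -1.98, -0.71, -0.82 and -0.46 on sictrl A1, M2, A2 and A3, and -1.98, -1.07, -1.74 and -0.83 on siUCA1 A1, M2, A2 and A3. Its difference of -0.41 came with wide scatter in both conditions (SE 0.37, adjusted p = 0.516). It ran from -0.74 without sictrl A1 to -0.22 without siUCA1 A1, and was -0.04 without both deviating arrays, with no call in any of these fits. CRYAB (alphaB-crystallin) differed by 0.03 and HSPB11 by -0.07.

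CCT/TRiC, the ring of 8 subunits that folds actin and tubulin, had all 8 genes tested and 0 called, with 2 (CCT2 and CCT6A) at an unadjusted p under 0.05 (27.6% of all genes) and a median of -0.02. CCT6A was 6.39, 6.29, 6.58 and 6.86 on sictrl A1, M2, A2 and A3, and 6.95, 6.91, 6.89 and 6.99 on siUCA1 A1, M2, A2 and A3. It was the member with the largest positive difference, 0.41 (SE 0.13, adjusted p = 0.0803, exact permutation p = 0.0286), all siUCA1 arrays lying above all sictrl arrays. With the deviating spots missing it was 0.51 and called (adjusted p = 0.0158). CCT2, measured by 10 spots, differed by -0.23 (SE 0.09, adjusted p = 0.121), and was called without both deviating arrays (-0.29, adjusted p = 0.0388) and with array weights (-0.26, adjusted p = 0.0169). TCP1 differed by 0.25 (adjusted p = 0.245), while CCT3, CCT4, CCT5, CCT7 and CCT8 lay between -0.12 and 0.02. The CCT5 probe is dim, with means of -1.87 in sictrl and -1.89 in siUCA1, and was well above background on only 3 siUCA1 arrays. The subunits of 1 complex thus had estimates on both sides of 0, and their differences from each other were not tested. Of the mitochondrial chaperonin pair, HSPD1 (HSP60) differed by 0.12 and HSPE1 (HSP10) by -0.18. HSPE1, whose spot lies in column 68, differed by -0.05 with the deviating spots missing and by -0.08 without sictrl A3, but by -0.31 with quantile normalization and -0.37 with normexp. HSPD1 differed by -0.03 and -0.04 in the latter settings.

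**Figure D3:**
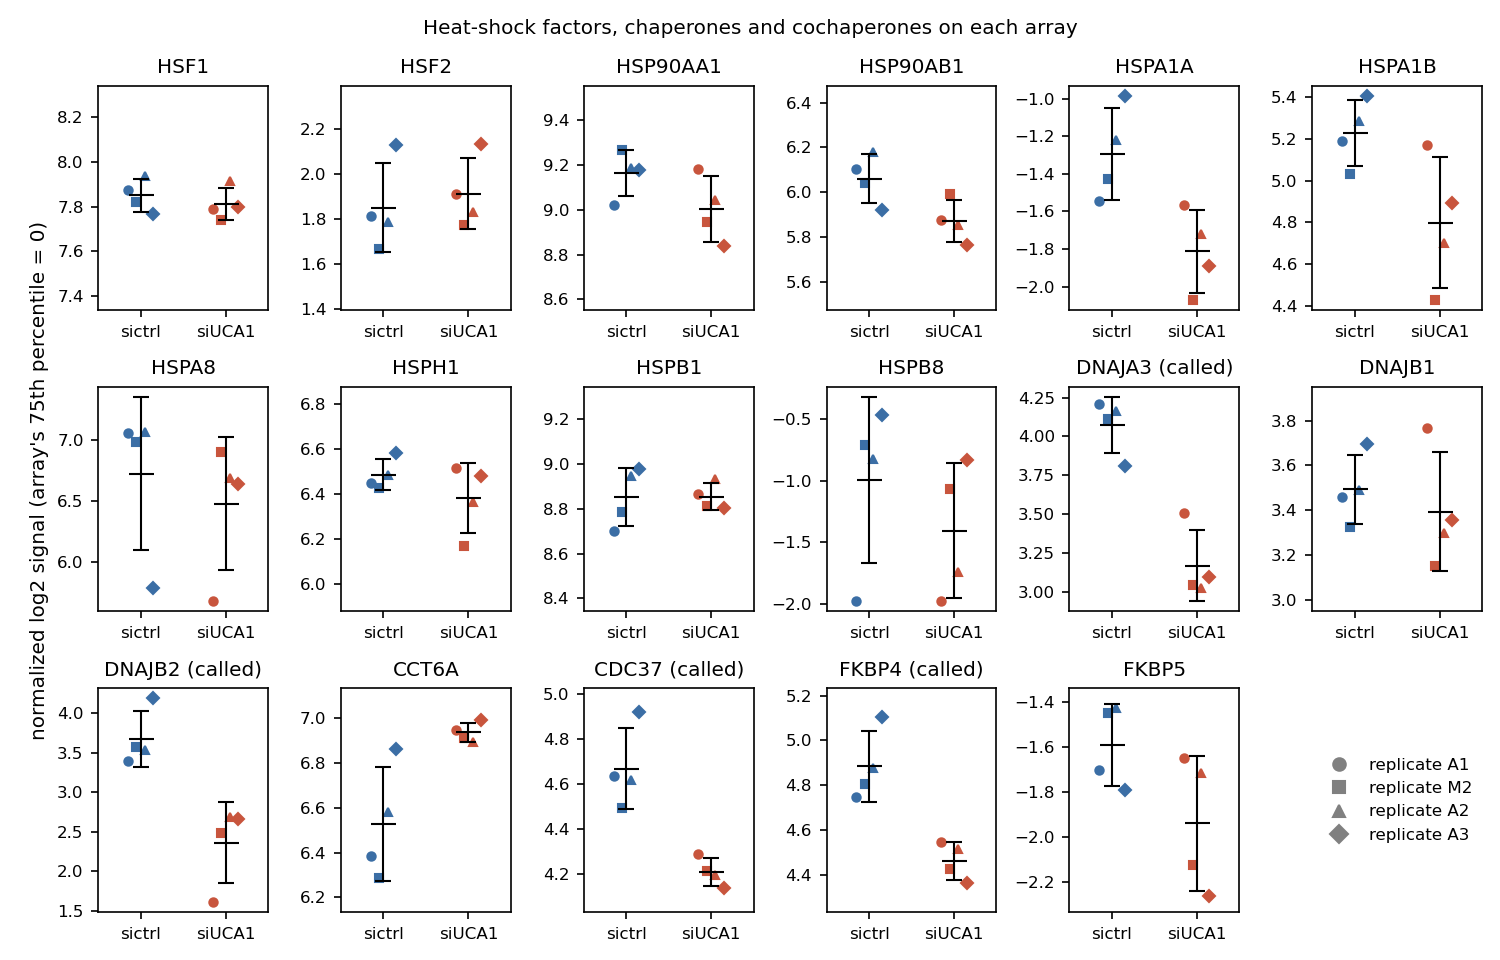
Normalized log2 signal (y axis, own range for each gene, spanning at least 1) of 17 members on the 4 sictrl and 4 siUCA1 arrays; symbols mark the replicate name, the horizontal bar the mean and the whiskers the SD. The arrays separate for DNAJB2, DNAJA3, CDC37, FKBP4, HSPA1A and CCT6A, and HSPA8 shows 1 low array in each condition.

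The heat-shock element that HSF1 binds was searched for in RefSeq promoter windows (GRCh38.p14, 250 bases before to 50 after each gene's start), written as GAA, any 2 bases, TTC, any 2 bases, GAA, on either strand. Windows were at hand for 42 of 48 members. At least 1 exact element lay in a window of 7 of them (16.7%), against 0.608% of the 27305 genes with a window. With 1 mismatch allowed in the 9 fixed bases, 20 members (47.6%) held one, against 7.6% of all genes. One exact element of each such gene is shown, since these are the closest matches on the list, together with those of HSPA1A and HSPA1B, the stress-inducible HSP70 genes. Each is read on the gene's strand with 6 bases on either side, and capitals mark the fixed bases that match. The last pair holds 1 mismatch.
HSP90AA1, chr14:102087114-102087138, minus strand: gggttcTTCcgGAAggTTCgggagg
HSP90AB1, chr6:44247825-44247849, plus strand: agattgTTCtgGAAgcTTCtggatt
HSPA8, chr11:123062173-123062197, minus strand: ggccccTTCtgGAAggTTCtaagat
HSPA6, chr1:161524460-161524484, plus strand: gaaaggTTCgcGAAagTTCgcggcg
DNAJA1, chr9:33025270-33025294, plus strand: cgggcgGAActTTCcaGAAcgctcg
DNAJB6, chr7:157336867-157336891, plus strand: agccgaGAAccTTCgcGAAggtggg
HSPD1, chr2:197500062-197500086, minus strand: tttctgGAAagTTCtgGAAccgagc
HSPA1A, chr6:31815431-31815455, plus strand: accctgGAAtaTTCccGAcctggca
HSPA1B, chr6:31827627-31827651, plus strand: cccctgGAAtaTTCccGAcctggca

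Of the members with an exact element, 6 were tested and 0 were called by limma, with 0 at an unadjusted p under 0.05, HSPA6 being below background. Their log2 fold changes ran from -0.31 (DNAJA1) to 0.14 (DNAJB6), with a median of -0.17. Over the 16 tested members with an exact or 1-mismatch element the median was -0.13 with 0 called and 3 past that unadjusted limit, and over the 22 tested members with a window and no such element it was -0.11, with DNAJB2, DNAJA3 and CDC37 called and 6 past that limit, which 27.6% of all genes passed. FKBP4 had no window. The spots of HSPA8 and DNAJA1, both with an exact element, lie in the deviating region, and their SEs were 0.35 and 0.29. With the deviating spots missing, DNAJA1 was called among members with an exact element and HSPA1A among those with 1 mismatch. HSPA4 joined the called members with no such element in that fit. HSPA6, the HSP70 gene that is almost silent without stress, gives a floor reading in both conditions, being well above background on 0 of 8 arrays. A match is a description of letters and not of a bound site.

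Genes that work beside the members were read from lists made by function. None of 5 tested prefoldin subunits, which pass actin and tubulin to CCT/TRiC, was called, with 2 at an unadjusted p under 0.05. Of 14 further cochaperones 0 were called, with 3 past that unadjusted limit, which 27.6% of all genes passed. Of 9 BAG and other nucleotide exchange factors 1 was called (11.1%), BAG3, the stress-inducible partner of HSPB8, which fell by 0.47 (SE 0.13, adjusted p = 0.0441). Of 25 other J-domain genes 5 were called (20%, against 11.6% of all genes), 3 higher and 2 lower. DNAJC27, a J-domain protein with a Rab-like GTPase part, rose by 0.96 (adjusted p = 0.0211) and DNAJB9, the endoplasmic reticulum J-domain protein of the unfolded protein response, by 0.81 (adjusted p = 0.00692). DNAJC2, which acts at the ribosome, fell by 0.56 (adjusted p = 0.0169).

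Most chaperones of the endoplasmic reticulum had positive differences, 10 of 12, where most of the list were negative. Of the 12 tested, 4 were called and all 4 were higher (33.3%, against 5.72% of all genes called higher), with a median of 0.29. Below 0 were HSPA5 (BiP), the HSP70 of that compartment, at -0.23 (adjusted p = 0.346) and SDF2L1, a partner of its J-domain proteins, at -0.16 (adjusted p = 0.456). CALR (calreticulin) rose by 0.56 (adjusted p = 0.0396), and PDIA6 and HSP90B1 (GRP94) by 0.44 each (adjusted p = 0.0491 and 0.0452). These 3 lay near the threshold. The fourth, CRELD2, a stress-inducible protein of the endoplasmic reticulum, rose by 0.41 (SE 0.08, adjusted p = 0.0174) with separate sets; it, HSPA5 and SDF2L1 are named after their values were seen. For the list as a whole, median scaling, normexp and the fit without a detection filter gave 0 called genes, and leaving out 1 array gave between 0 and 5. The difference between the lists was not tested. Of 6 tested glucocorticoid-responsive genes and receptor, set beside FKBP5, 0 were called, with 2 at an unadjusted p under 0.05, against 11.6% and 27.6% of all genes.

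**Figure D4:**
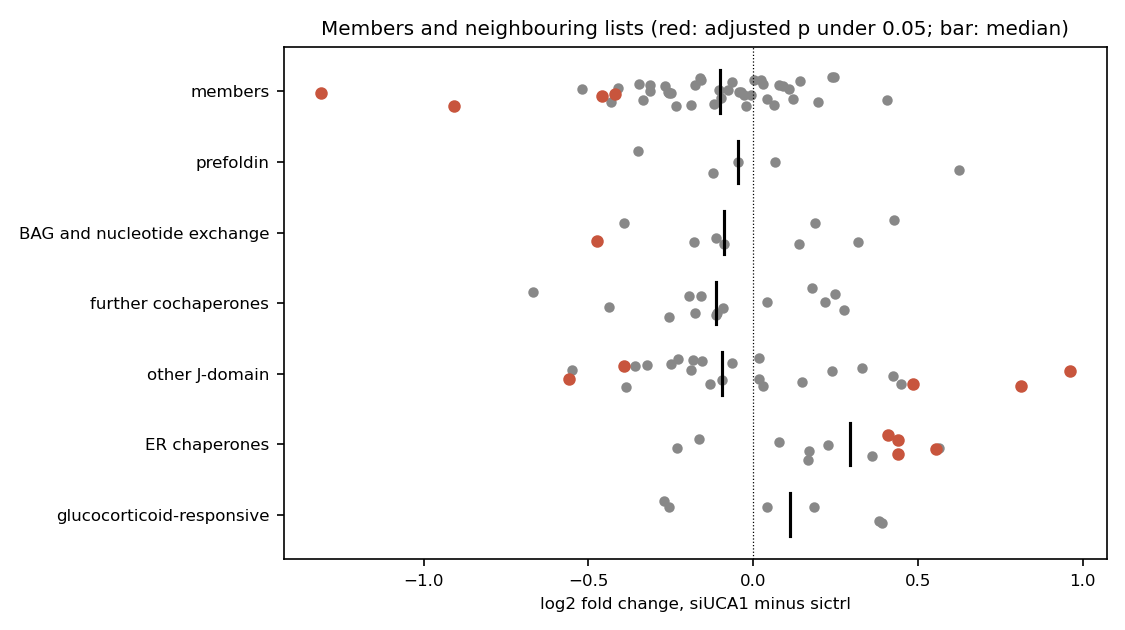
Log2 fold change (siUCA1 minus sictrl, x axis) of the members and of neighbouring lists of chaperone genes; each point is 1 gene, red marks an adjusted p under 0.05 and the bar is the list's median, -0.10 for the members and 0.29 for the endoplasmic reticulum (ER) chaperones. The vertical scatter within a list has no meaning.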

How the data were processed

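The authors deposited the Agilent Feature Extraction output of each array (version 10.7.3.1 in the submitters' processing notes), in which a spot's processed intensity is background-subtracted, corrected for a surface trend and not normalized between arrays. A deposited table of the whole series held the same intensity values. From these, log2 values were taken and each array's 75th percentile over non-control spots was subtracted. Control and outlier spots were left out, and spots of a probe were averaged. A probe had to be well above background on 4 of 4 arrays in sictrl, siUCA1 or both, and the probe with the highest mean among those kept stood for the gene. Array accessions were named through RefSeq (GRCh38.p14).

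The difference of siUCA1 and sictrl was estimated over all genes by limma 3.58.1 (its functions lmFit and eBayes), run under R 4.3.3 and data.table (1.17.8), with Benjamini-Hochberg adjustment; the study's methods name limma with that correction. Exact permutation tests were two-sided. In simulated data, 66.6% of genes given a log2 change of 1 were called, and 4.53% of calls were false. The simulated noise was independent between probes and arrays, so it did not hold the regional deviation of sictrl A3 and siUCA1 A1. Promoter windows and figures used Python 3.11.15, pandas 2.3.3, NumPy 2.4.6 and Matplotlib 3.10.9. The members, roles and neighbouring lists were chosen with earlier results of these data known, so lists are described by counts and medians and not tested. Per-array values are given for called members, the 4 largest differences not called, and HSF1, HSF2, HSP90AA1, HSP90AB1, HSPA1A, HSPA1B, HSPA8, HSPB1, HSPH1, DNAJB1 and FKBP5. Of neighbouring lists, the called genes up to the 3 with the largest difference are named. A further marker of other cells is not reported here. The number of arrays limits the precision. Between 20858 and 24039 spots per array were well above background. There were 16 alternatives, 1 of them chosen after seeing the data, and 8 fits that leave out 1 array.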

Additional observations from a re-analysis of the deposited data

Results flagged for a closer look

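DNAJA3 on siUCA1 A1, at 3.507, stood apart from the other 3 siUCA1 arrays, which lay between 3.024 and 3.094. HSPA8 on sictrl A3, at 5.782, stood apart from the other sictrl arrays, which lay between 6.986 and 7.071. The surface trend that Feature Extraction fitted and removed had a root mean square of 0.3214 on sictrl A3 (others of the condition 0.079 to 0.0925) and of 0.2867 on siUCA1 A1 (others 0.0737 to 0.0943). In each case the gap to the nearest array, as a share of the range, passed Dixon's 95% critical value for 4 values, which chance passes in about 1 of 20 groups. Such sets numbered 38, of which these 4 passed. Of the 44 members tested, 28 had their farthest sictrl array in A3 and 25 their farthest siUCA1 array in A1. The part of the surface trend in these deviations was not tested.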

How the results depend on the processing

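DNAJA3 and DNAJB2 kept their direction and their call in 23 of 24 settings, the exception being the fit without a detection filter, in which 0 members and 76 of 47753 genes were called (DNAJA3 adjusted p = 0.117, DNAJB2 0.153). CDC37 kept its call in 16 settings and FKBP4 in 13, both always below 0. The number of members called was 4; it was 2 with median scaling (both lower; 3.46% of all genes called) and 2 with the replicate block (both lower; 11.2%), 13 with array weights (12 lower), 12 with both deviating arrays left out (11 lower) and 8 with their left columns missing (7 lower). In these last 3 fits the share of all genes called was also higher (31.1%, 24.3% and 21.3%). Leaving out 1 array gave from 2 to 7 called members, and from 2 to 7 called lower. The members' median, reported as -0.1008, was -0.1791 with quantile normalization, -0.1965 with median scaling and -0.1656 with normexp, where the median of all genes was 0.01429, -0.06534 and 0.01055. Values near 0 changed sign. HSPB1 was -0.1305 (quantile), -0.09404 (median scaling), -0.01577 (75th percentile over the detected probes) and -0.09355 (normexp), and -0.04842 to 0.04294 leaving out 1 array. HSF2 was -0.03334 with median scaling and -0.0117 to 0.1558 leaving out 1 array. HSF1 was 0.01532 with normexp, 0.0543 over the mean of detected probes and -0.103 to 0.09419 leaving out 1 array. HSPA8 ran from -0.5622 to 0.02006 leaving out 1 array. The cause of these changes was not tested.

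For neighbouring lists, called genes numbered 1 for BAG and exchange factors, 5 for other J-domain genes and 4 for endoplasmic reticulum chaperones. The BAG count was 0 with median scaling, the 75th percentile over detected probes, normexp, no filter and the slide row as a block, 2 with the replicate block, 4 with array weights, 3 without both deviating arrays and 2 with their left columns missing. The J-domain count was 0 with median scaling and without a filter, 2 with normexp, and 8 with array weights, without both arrays and with their left columns missing. The endoplasmic reticulum count was 2 with quantile normalization, 0 with median scaling, normexp and no filter, and 1 with the slide row as a block. Leaving out 1 array gave 0 to 2, 1 to 5 and 0 to 5. Over all genes, 11.6% were called, and 11.8% with quantile normalization, 3.46% with median scaling, 12.1% with the 75th percentile over detected probes, 2.69% with normexp, 0.159% without a filter, 8.22% with the slide row and 4.9% to 14.7% leaving out 1 array. The share was 11.2% with the replicate block, 31.1% with array weights, 24.3% without both deviating arrays and 21.3% with their left columns missing. UCA1 stayed called in every setting.

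The replicate names were not used as a pairing in the reported fit, although the study's methods give independent experiments. Over genes, the deviations of same-named arrays correlated at 0.0383 (A1), 0.278 (M2), 0.216 (A2) and 0.127 (A3). All were above 0, but not every one was above 0.1. For arrays of different names the values ran from -0.311 to 0.205. The deviating arrays sictrl A3 and siUCA1 A1, of different names, correlated at 0.177, so this check cannot settle whether the names mark pairs. The replicate block left the calls of DNAJA3 and DNAJB2 and removed those of CDC37 (adjusted p = 0.0613) and FKBP4 (0.0757). Dim probes give bounds only for HSPA1L, HSPA6 and DNAJA4.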
